A study of Mus musculus with 21 samples.

Results

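The comparison is between monocyte-derived cells sorted from the adipose tissue of obese and of lean mice. The obese mice were male C57BL/6 mice kept on a high fat diet for 16 weeks, and the lean mice were male C57BL/6 mice kept on a normal diet for the same time. All libraries labelled as sorted monocyte-derived cells were taken, 3 from obese and 3 from lean mice, which is 6 of the 21 RNA-seq libraries of the series. The remaining 15 libraries are adipose tissue macrophages separated by MHC class II and CD11c, and they are used here only where the diet effect in monocyte-derived cells is set against the diet effect in other cells. Single cells were released from the tissue with collagenase and sorted on a FACS Aria III, and their RNA, isolated with the PicoPure kit, went into NuGen Ovation libraries, as the labels state. The sources used here do not give the fat depot, the age of the mice, the surface markers of the sort gate or whether each library is a separate animal, so the p-values measure the spread between these samples, which may be technical.

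Monocytes enter adipose tissue from the blood in lean and in obese mice, and there they can become macrophages or cells that resemble dendritic cells. In obesity, macrophages gather around dying adipocytes, take up their lipid and store it in droplets or degrade it in lysosomes. Macrophages that do so are known for Trem2, a surface receptor that binds lipids, Gpnmb, a membrane glycoprotein of cells rich in lysosomes, and genes of lipid uptake and lysosomal digestion. Sterols in such cells activate the liver X receptors, transcription factors whose targets export cholesterol and lower its uptake.

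The 3 obese libraries held 25642197, 20871699 and 23152513 counts and the 3 lean libraries held 17274802, 20058521 and 11245851. The lean libraries differed more among themselves. Over 8205 genes with at least 10 CPM (counts scaled to a common library total), the median SD of the log2 level was 0.124 among the obese libraries and 0.285 among the lean libraries, against 0.101 to 0.139 in the 5 macrophage groups. The lean libraries also carried more counts on genes that these cells should not express. The summed level of 1461 olfactory and vomeronasal receptor genes was 97.8, 163 and 73.7 CPM in obese replicates 1 to 3, against 637, 295 and 1101 CPM in lean replicates 1 to 3. Every lean library lay above every obese library in this background, and lean replicate 3, the shallowest library, was the highest.

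**Figure D1:**
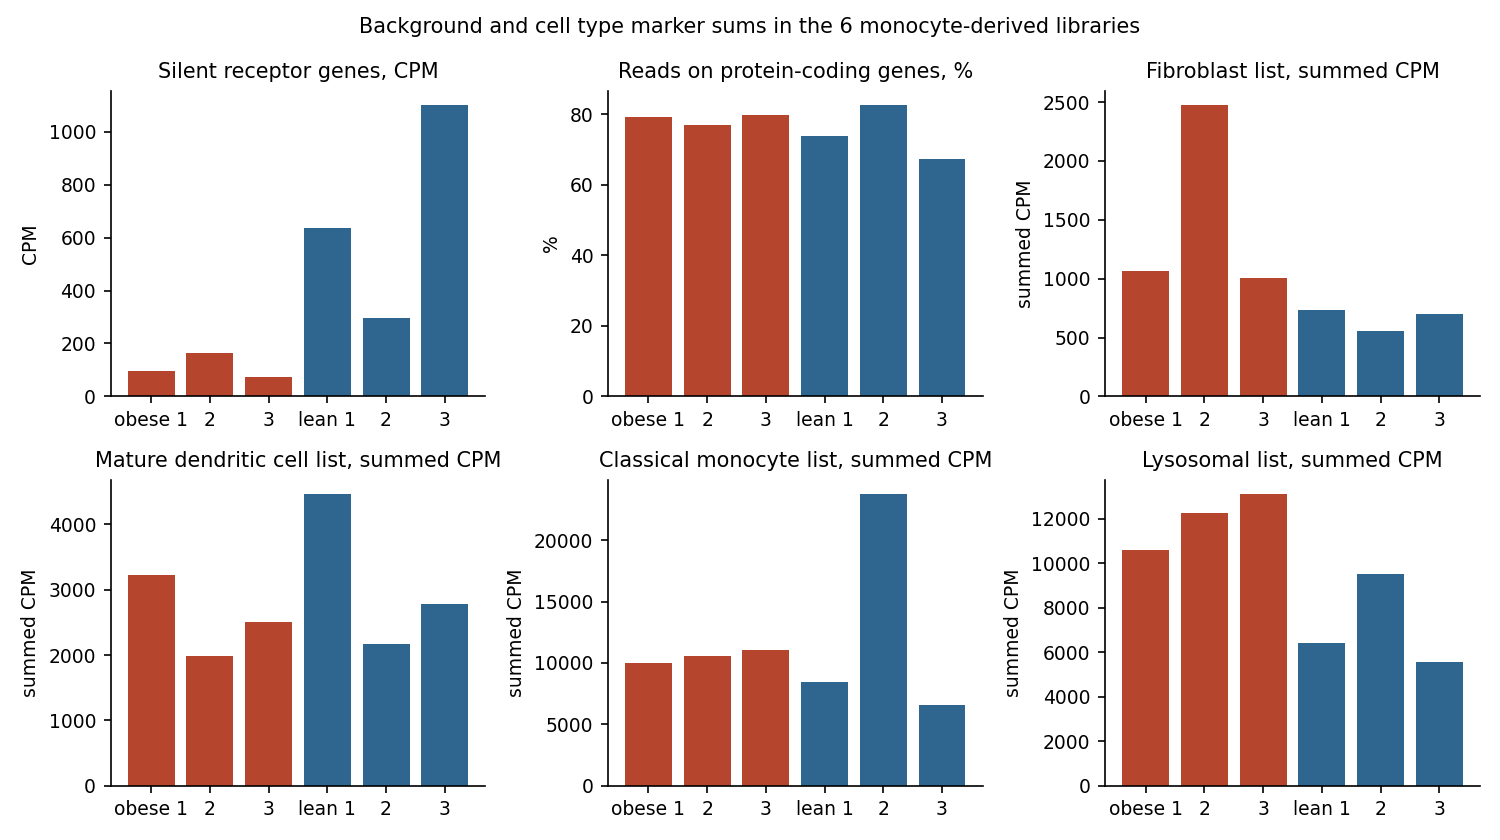
Background and marker sums in each of the 6 libraries of monocyte-derived cells (red, obese; blue, lean; bars start at 0; no error, since each bar is 1 library). The panels give the summed CPM of olfactory and vomeronasal receptor genes, the percent of counts on protein-coding genes, and the summed CPM of 4 gene lists: the lean libraries are highest in the receptor genes, lean replicate 2 holds 23732 CPM of classical monocyte genes, and obese replicate 2 holds 2475 CPM of fibroblast genes.

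The labelled cell type was checked against its markers. Ccr2, the chemokine receptor that brings monocytes into tissue, was at 339.6, 438 and 406 CPM in the obese libraries and 362, 470.2 and 333 CPM in the lean libraries. Ly6c2, the surface protein of classical blood monocytes, was at 2.98, 5.56 and 4.83 CPM in obese and 5.58, 2.65 and 1.81 CPM in lean libraries. The cells therefore carried Ccr2 in all 6 libraries while Ly6c2 was low in all 6, and H2-Ab1, for an MHC class II beta chain, was between 3092 and 5081 CPM. Genes that mark dendritic cells were present as well. Flt3 is the growth factor receptor of the dendritic cell lineage. It was at 67.8, 28.3 and 31.6 CPM in obese and 116, 21.6 and 115 CPM in lean libraries. Scaled together with all 21 libraries, it averaged 41.8 ± 21.8 and 80.5 ± 51.6 CPM (SD, n = 3 each). No macrophage group averaged more than 1.04 CPM. Ccr7, the receptor that guides mature dendritic cells to lymph nodes, averaged 215 ± 104 CPM in obese and 243 ± 195 CPM in lean monocyte-derived cells and at most 3.52 CPM in the macrophage groups. Lean replicate 2 stood apart from the other lean libraries, with the lowest Flt3 and Ccr7 and the highest Fn1, a matrix protein abundant in monocytes and macrophages (4290.1, 3738 and 4848 CPM in obese, 4026, 14569.8 and 3612 CPM in lean libraries). The lean means of these genes therefore depend on that library. In sorted bulk samples, fewer cells of a type and less RNA per cell cannot be told apart.

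A gene is called here when the Benjamini-Hochberg adjusted p of edgeR's quasi-likelihood test is under 0.05. Of 19248 genes tested, 122 (0.634%) were called: 97 (0.504%) were higher and 25 (0.13%) were lower in obese mice. The called rises ran between 0.82 and 4.75 on the log2 scale and the called falls between -0.86 and -4.80, while the median over all tested genes was -0.007. Log2 changes are given ± SE with 3 libraries per group unless stated otherwise, and levels of genes are CPM scaled by the TMM method. Exceptions are Fn1, Col1a1, the genes shown as markers of other cell types, and all sums, which are scaled by library totals alone. In each of the 122 genes the 3 obese libraries did not overlap the 3 lean libraries. Such separation alone was common, since 13.2% of all tested genes lay wholly higher and 12.5% wholly lower in obese mice. An unadjusted p under 0.05 was common too, with 1401 genes higher (7.28%) and 2227 lower (11.6%), so the unadjusted counts given for gene lists are to be read against these shares. List counts of edgeR calls and of genes without overlap are likewise to be read against their shares above. Protein-coding genes made up 94 of the 97 rises and 23 of the 25 falls, and 93 of the rises but 19 of the falls reached 10 CPM in the higher group.

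All 122 genes kept their direction in every one of the 18 other ways of fitting that gave them a value, but the number called depended on which libraries were in the fit. Without lean replicate 1 edgeR called 0 genes, with 3320 at an unadjusted p under 0.05, and without lean replicate 3 it called 1, Slc37a2. Without lean replicate 2 it called 5096, among them all 122, and without obese replicate 2 or 3 it called 45 or 46. Limma with a weight for each library, which gave lean replicates 2 and 3 the lowest weights (0.348 and 0.430), called 622 genes higher (3.23%) and 1055 lower (5.48%), among them 114 of the 122. DESeq2 called 564 of the same genes higher (2.93%) and 748 lower (3.89%). Limma and DESeq2 calls in gene lists are to be read against these shares. The fit of all 21 libraries, in which the macrophage groups help to set the spread, called 1707 higher (7.44%) and 2239 lower (9.76%), among them all 122. The balance between rises and falls also moved: with every library thinned to the depth of the shallowest it was 120 higher and 75 lower, among genes with a mean of at least 10 CPM 93 and 60, and with the background of the receptor genes subtracted 76 and 40.

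**Figure D2:**
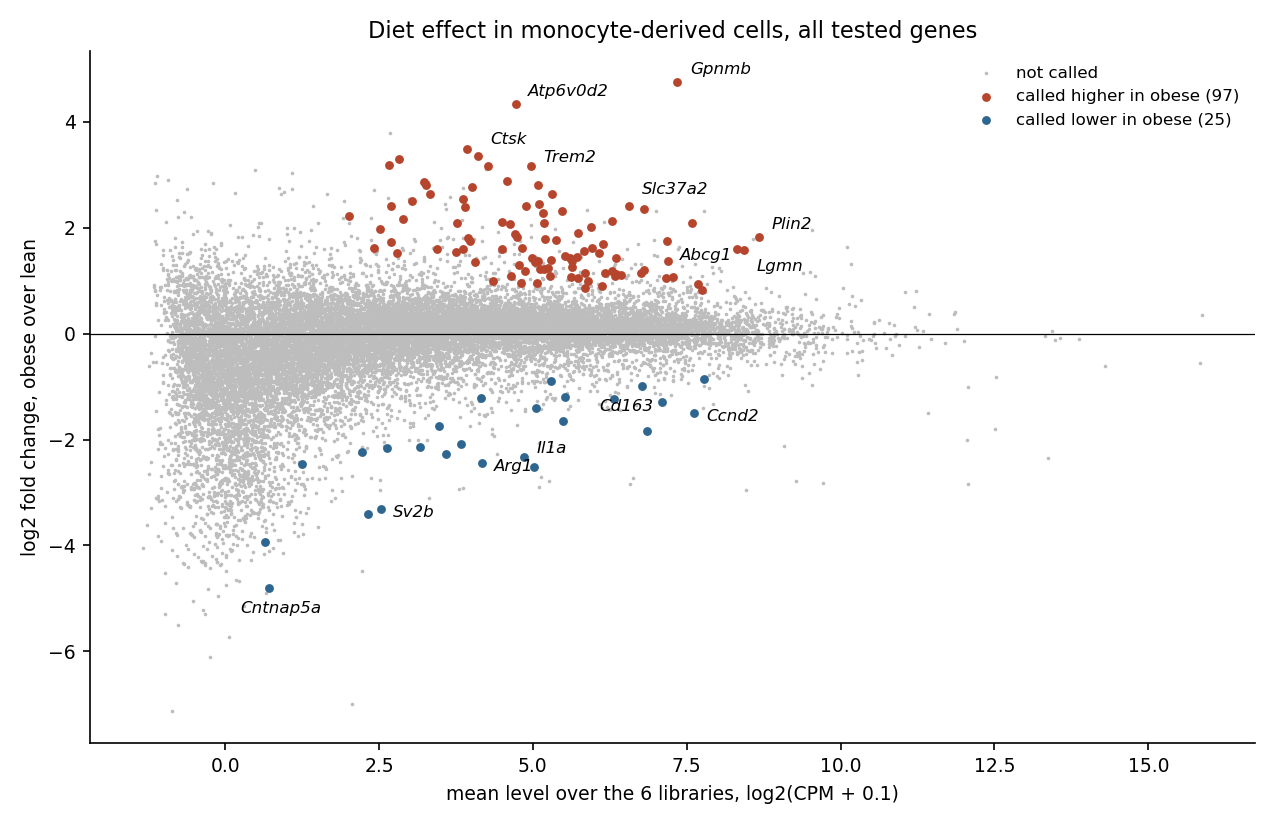
Diet effect in monocyte-derived cells for the 19248 tested genes: mean level over the 6 libraries as log2(CPM + 0.1) on the x axis, log2 fold change of obese over lean on the y axis (grey, not called; red, 97 genes called higher; blue, 25 called lower). Gpnmb lies highest at 4.75, most of the red points lie above 10 CPM, and the cloud of uncalled genes at low levels leans toward negative values, where the lean libraries are higher.

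The largest called rise was in Gpnmb, at chr6:49036546-49070929 (+ strand) on GRCm38. Its level was 179, 425 and 339 CPM in obese replicates 1 to 3, against 9.48, 8.45 and 17.5 CPM in lean replicates 1 to 3, a log2 change of 4.75 ± 0.41 (adjusted p = 0.00502) and a fitted fold of 26.9. The groups were far apart, and obese replicate 1 was the lowest of the obese libraries. Trem2, at chr17:48346401-48354147 (+ strand), was at 38.2, 59.3 and 70.5 CPM in obese and 6.54, 5.95 and 6.34 CPM in lean libraries, a log2 change of 3.16 ± 0.25 (adjusted p = 0.00367). The 3 lean libraries lay close together for Trem2, and all 3 obese libraries were far above them.

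Both belong to a list of 20 genes of lipid-associated macrophages, of which 7 rose. None was lower at an unadjusted p under 0.05. Limma and DESeq2 called 15 higher each (3.23% and 2.93% of all tested genes) and none lower. The list's median log2 change was 1.79, against -0.007 over all tested genes. The list was drawn up with results of these data known, and its level is no independent evidence of its direction. The other 5 rises in it were Atp6v0d2, Ctsl, Cd63, Fabp4 and Plin2. Plin2, the protein that coats lipid droplets, was at 505, 745 and 655 CPM in obese and 164, 263 and 111 CPM in lean libraries (log2 1.82 ± 0.30, adjusted p = 0.042), and the groups did not overlap although lean replicate 2 was well above the other lean libraries. Fabp4, which carries fatty acids inside the cell, was at 28.7, 45.7 and 45.1 CPM in obese and 12.6, 8.95 and 6.79 CPM in lean libraries (log2 2.07 ± 0.27, adjusted p = 0.0202), with every obese library above every lean library.

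Several genes of the same list had large differences and missed the threshold. Lpl, the lipase that frees fatty acids from lipoproteins, was at 1351, 1758 and 1818 CPM in obese and 483, 1157 and 335 CPM in lean libraries (log2 1.32 ± 0.41, adjusted p = 0.13). Cd36, the scavenger receptor for fatty acids and oxidised lipoproteins, was at 912, 1302 and 1346 CPM in obese and 212, 506 and 192 CPM in lean libraries (log2 1.97 ± 0.37, adjusted p = 0.0511). In both genes the groups did not overlap, and lean replicate 2 was far above the other lean libraries, as it was for Fn1. Cd9, a tetraspanin often used to mark these macrophages, was at 93, 88.8 and 107 CPM in obese and 93.7, 61.1 and 66.4 CPM in lean libraries (log2 0.38 ± 0.19, adjusted p = 0.308), and lean replicate 1 lay within the obese range.

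The bases before the start of Gpnmb, Trem2 and Ctsk (cathepsin K, a lysosomal protease that degrades collagen) are shown because these genes are among the 10 largest rises that the rule for named genes selects. Each is the 250 bases upstream of the RefSeq transcript start on GRCm38.p6, written in the direction of the gene, and no base is in capitals because none of the 3 holds the motif CACGTG that is described with the lysosomal genes.
Gpnmb upstream, chr6:49036268-49036517 (+ strand): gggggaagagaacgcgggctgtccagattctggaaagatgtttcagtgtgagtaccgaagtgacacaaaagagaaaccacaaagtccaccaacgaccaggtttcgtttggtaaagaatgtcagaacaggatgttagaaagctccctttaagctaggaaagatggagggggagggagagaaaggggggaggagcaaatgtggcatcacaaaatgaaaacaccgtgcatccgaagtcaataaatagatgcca
Trem2 upstream, chr17:48346151-48346400 (+ strand): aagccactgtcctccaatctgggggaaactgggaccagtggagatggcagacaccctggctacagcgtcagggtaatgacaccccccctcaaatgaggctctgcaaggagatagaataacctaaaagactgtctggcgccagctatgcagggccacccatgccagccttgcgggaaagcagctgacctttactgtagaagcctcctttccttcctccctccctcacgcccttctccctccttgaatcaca
Ctsk upstream, chr3:95498960-95499209 (+ strand): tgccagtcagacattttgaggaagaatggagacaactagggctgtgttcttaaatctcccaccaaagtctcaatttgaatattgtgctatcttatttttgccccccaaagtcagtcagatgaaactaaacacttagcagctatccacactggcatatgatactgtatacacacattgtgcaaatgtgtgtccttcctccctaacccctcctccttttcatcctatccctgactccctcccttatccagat

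**Figure D3:**
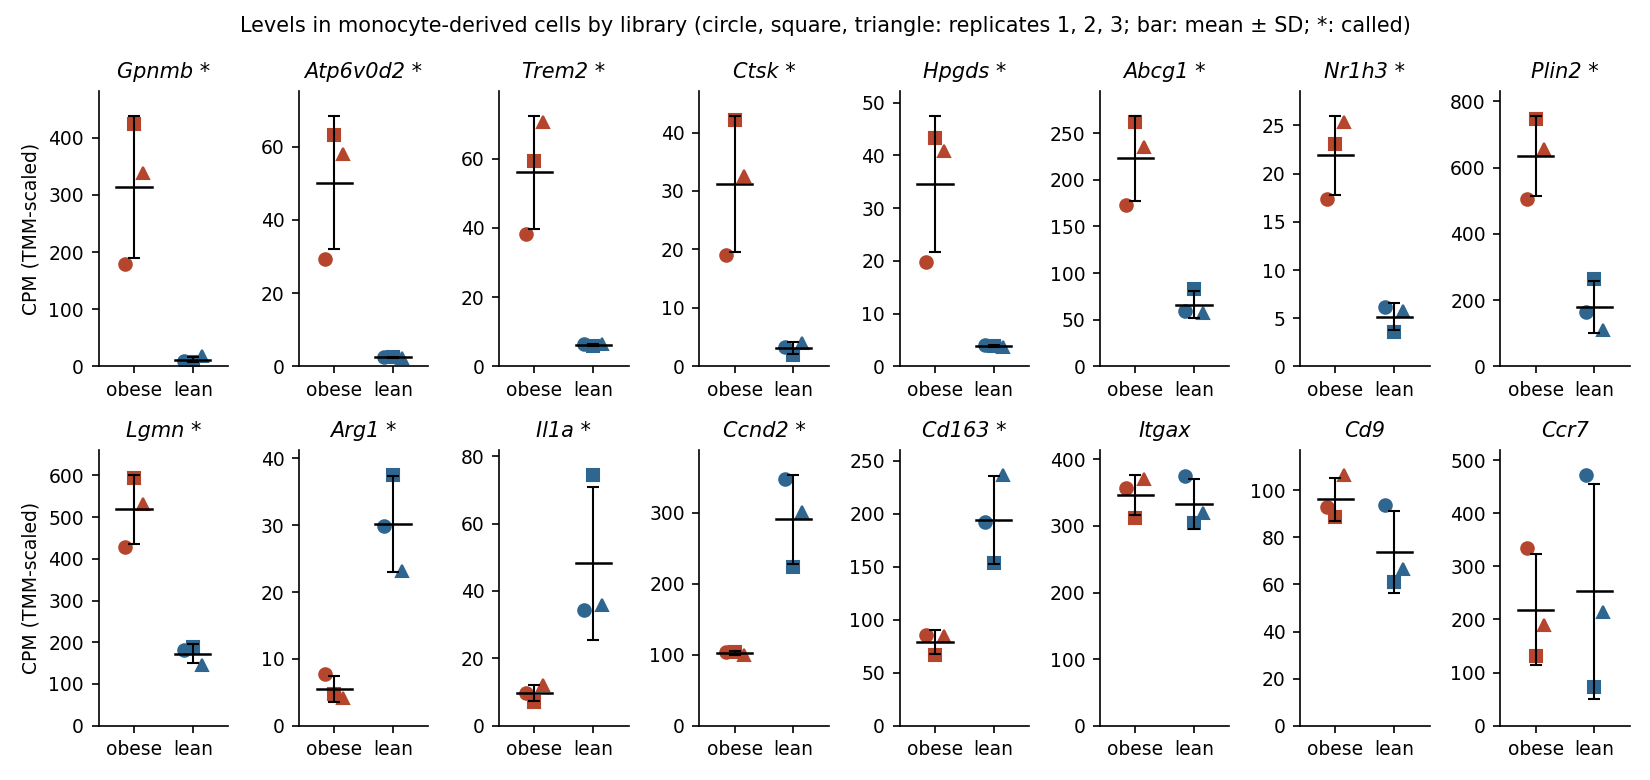
TMM-scaled CPM (y axis, starting at 0, a scale per gene) of 16 genes in the obese (red, left) and lean (blue, right) libraries; circle, square and triangle are replicates 1, 2 and 3, bars are mean ± SD (n = 3), and an asterisk marks a called gene. The 9 genes from Gpnmb to Lgmn are higher in every obese library, the 4 genes from Arg1 to Cd163 are lower in every obese library, and Itgax, Cd9 and Ccr7 are not called, with groups that overlap.

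Lysosomal genes were higher in obese mice as a broad, mostly modest shift with a few large rises. Of 30 genes for lysosomal hydrolases and membrane proteins, 4 rose (Ctsk, Ctsl, Cd63 and Lgmn), none was lower at an unadjusted p under 0.05, and all 30 had a positive log2 change with a median of 0.67. In 18 of the 30 the obese libraries lay wholly above the lean libraries, as in 13.2% of all tested genes. Limma with quality weights called 18 higher (3.23% of all tested genes) and DESeq2 12 (2.93%). The summed level of the list was 10593, 12239 and 13091 CPM in the obese libraries and 6388, 9526 and 5579 CPM in the lean libraries. No lean library reached the obese range, and lean replicate 2 came closest.

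Ctsk, at chr3:95499256-95509362 (+ strand), was at 19, 42.2 and 32.6 CPM in obese and 3.36, 2 and 3.98 CPM in lean libraries (log2 3.35 ± 0.36, adjusted p = 0.0131). Ctsl, a lysosomal protease whose gene is overlapped by another gene on the opposite strand, was at 138, 238 and 184 CPM in obese and 30.5, 52.1 and 26.2 CPM in lean libraries (log2 2.36 ± 0.30, adjusted p = 0.0163). In both genes every obese library was above every lean library. Lgmn, the protease that cuts after asparagine and activates other lysosomal proteases, was at 429, 594 and 532 CPM in obese and 183, 189.7 and 146 CPM in lean libraries (log2 1.59 ± 0.18, adjusted p = 0.0144). Cd63, a tetraspanin of late endosomes and lysosomes, was at 105, 122 and 155 CPM in obese and 40.4, 22.2 and 25 CPM in lean libraries (log2 2.12 ± 0.26, adjusted p = 0.0163). Neither gene overlapped between the groups, although lean replicate 1 of Cd63 was above the other lean libraries. Outside that list, Acp5 and Acp2, which encode the tartrate-resistant and the lysosomal acid phosphatase, rose by 1.60 and 1.42 on the log2 scale, and Sort1, a receptor that sorts cargo to lysosomes, by 1.48. Within the list, Ctsb, another protease, had a log2 change of 1.63 ± 0.33 (adjusted p = 0.0604) and Lipa, the lysosomal acid lipase, one of 1.59 ± 0.31 (adjusted p = 0.0553), so neither was called.

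The vacuolar proton pump acidifies lysosomes, and Atp6v0d2 encodes a form of its d subunit found in macrophages and in osteoclasts. Atp6v0d2, at chr4:19876841-19922605 (- strand), was at 29.3, 63.3 and 58 CPM in obese and 2.46, 2.6 and 2.35 CPM in lean libraries, a log2 change of 4.34 ± 0.32 (adjusted p = 0.00367). The 3 lean libraries were nearly equal and the obese libraries were all more than 10 times their level. It was the only called gene among 18 of the pump and its accessory proteins. None of the 18 was called lower, at an unadjusted p or by limma or DESeq2. Limma called 10 higher (3.23% of all tested genes) and DESeq2 5 (2.93%). The median log2 change of the list was 0.50, so the other subunits, which serve every cell, differed far less than Atp6v0d2.

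Many lysosomal genes carry the sequence CACGTG near their start, which the transcription factors Tfeb, Tfe3 and Mitf can bind, as can other factors of the same family. The 300 bases around each RefSeq start on GRCm38.p6, 250 before and 50 after, were searched for CACGTG, which is its own reverse complement, so that both strands are covered by a single search. It was present for 2187 of 27025 genes with a RefSeq promoter (8.09%), whether or not they were tested here. Of the called genes with such a promoter, 14 of 70 rises (20%) and 1 of 18 falls, Sv2b, held it. Called genes come only from the tested genes, so these shares have unlike bases. The 14 include Cd300ld4 and Cd300ld5, whose upstream sequences are near copies. Of 24 lysosomal genes with a promoter 11 held it (45.8%), and of 13 lipid-associated macrophage genes 2. A match describes the letters of the window and is not a measured binding site. These stretches are shown because their genes rose, with the motif in capitals and 12 bases on either side, in the direction of the gene.
Ctsl, chr13:64370739-64370768 (- strand): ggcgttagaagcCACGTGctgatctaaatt
Lgmn, chr12:102439124-102439153 (- strand): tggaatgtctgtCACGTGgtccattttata
Plin2, chr4:86670046-86670075 (- strand): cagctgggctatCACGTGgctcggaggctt
Gdf15, chr8:70632161-70632190 (- strand): cacagggcagggCACGTGtgagcatccagt
Slc27a1, chr8:71570380-71570409 (+ strand): ggggtgtctagcCACGTGgtcagtgcttgg
Lpin2, chr17:71183511-71183540 (+ strand): cggagctcgcgtCACGTGgccgggccgggg
The motif begins 236 bases before the start in Ctsl, 202 in Slc27a1, 83 in Gdf15, 49 in Lgmn, 9 in Lpin2 and 4 in Plin2.

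The last 3 genes of that set that are not yet described act outside the lysosome. Gdf15, a cytokine released by stressed cells, was at 44.3, 77.3 and 84.1 CPM in obese and 7.14, 16.8 and 8.78 CPM in lean libraries (log2 2.64 ± 0.36, adjusted p = 0.0234). Slc27a1, a fatty acid transporter, was at 62.7, 97 and 91.1 CPM in obese and 20.6, 23.7 and 22.5 CPM in lean libraries (log2 1.91 ± 0.19, adjusted p = 0.0105). Lpin2, a phosphatase of triglyceride synthesis, was at 176, 236 and 218 CPM in obese and 87.8, 114 and 100.1 CPM in lean libraries (log2 1.06 ± 0.17, adjusted p = 0.0369). The groups were apart in all 3 genes, and the size of the rise fell in the order Gdf15, Slc27a1, Lpin2.

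Some genes of sterol sensing, export and storage were called higher in obese mice, and most of their list was not called by edgeR. Of 16 genes of sterol handling and liver X receptor targets, 4 were called higher. At an unadjusted p under 0.05, 8 were higher (7.28% of all genes) and none lower. Limma called 7 higher (3.23%) and DESeq2 6 (2.93%), and neither called any lower. Their median log2 change was 0.45, close to that of the proton pump list. Nr1h3, which encodes liver X receptor alpha, was at 17.3, 23.1 and 25.3 CPM in obese and 6.18, 3.55 and 5.7 CPM in lean libraries (log2 2.10 ± 0.26, adjusted p = 0.0163). Abcg1, which exports cholesterol to lipoproteins, was at 173, 262 and 235 CPM in obese and 59.5, 82.6 and 56.8 CPM in lean libraries (log2 1.75 ± 0.21, adjusted p = 0.0163). The groups were separate in both genes. Mylip, a ubiquitin ligase that removes the LDL receptor, was at 38, 43.3 and 41.2 CPM in obese and 17.1, 18.9 and 17.6 CPM in lean libraries (log2 1.19 ± 0.15, adjusted p = 0.0163). Soat1, which stores cholesterol as esters, was at 174, 207 and 201 CPM in obese and 87.8, 109 and 82.5 CPM in lean libraries (log2 1.06 ± 0.16, adjusted p = 0.0283). For Mylip the replicates of each group lay within a few CPM of each other.

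Genes of cholesterol synthesis and of fatty acid use had few calls. Of 21 genes of cholesterol synthesis edgeR called 0, with 1 higher and 2 lower at an unadjusted p under 0.05, and limma and DESeq2 called 1 each, lower. Fatty acid oxidation also had 0 called of 19 by edgeR, with 4 higher at an unadjusted p under 0.05, 3 called higher by limma and 0 by DESeq2. Its median log2 change was 0.36. Of 14 genes of lipid droplets and lipases, Plin2 alone was called by edgeR, and their median was 0.15. At an unadjusted p under 0.05, 4 were higher and 0 lower, and limma called 4 higher and DESeq2 2. Angptl4, a secreted inhibitor of lipoprotein lipase that is a known target of fatty acid receptors, was at 20.1, 35.1 and 28.5 CPM in obese and 5.64, 2.95 and 3.62 CPM in lean libraries (log2 2.77 ± 0.31, adjusted p = 0.0144), with no overlap.

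Of 15 transcription factors of macrophages and lysosomes, 3 rose: Nr1h3, Pparg and Bhlhe41. Pparg, the receptor for fatty acids that drives lipid storage, was at 46.5, 53.8 and 57.6 CPM in obese and 22, 28.3 and 24 CPM in lean libraries (log2 1.09 ± 0.16, adjusted p = 0.0283). Bhlhe41, a repressor known from macrophages of the lung, was at 5.06, 7.17 and 7.18 CPM in obese and 1.14, 1.2 and 1.9 CPM in lean libraries (log2 2.21 ± 0.34, adjusted p = 0.0289), and its gene is overlapped on the opposite strand. The obese libraries were higher without overlap in both. None of the 15 was called lower by edgeR, limma or DESeq2, while limma called 7 higher and DESeq2 5. At an unadjusted p under 0.05, 8 were higher and 1 lower.

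**Figure D4:**
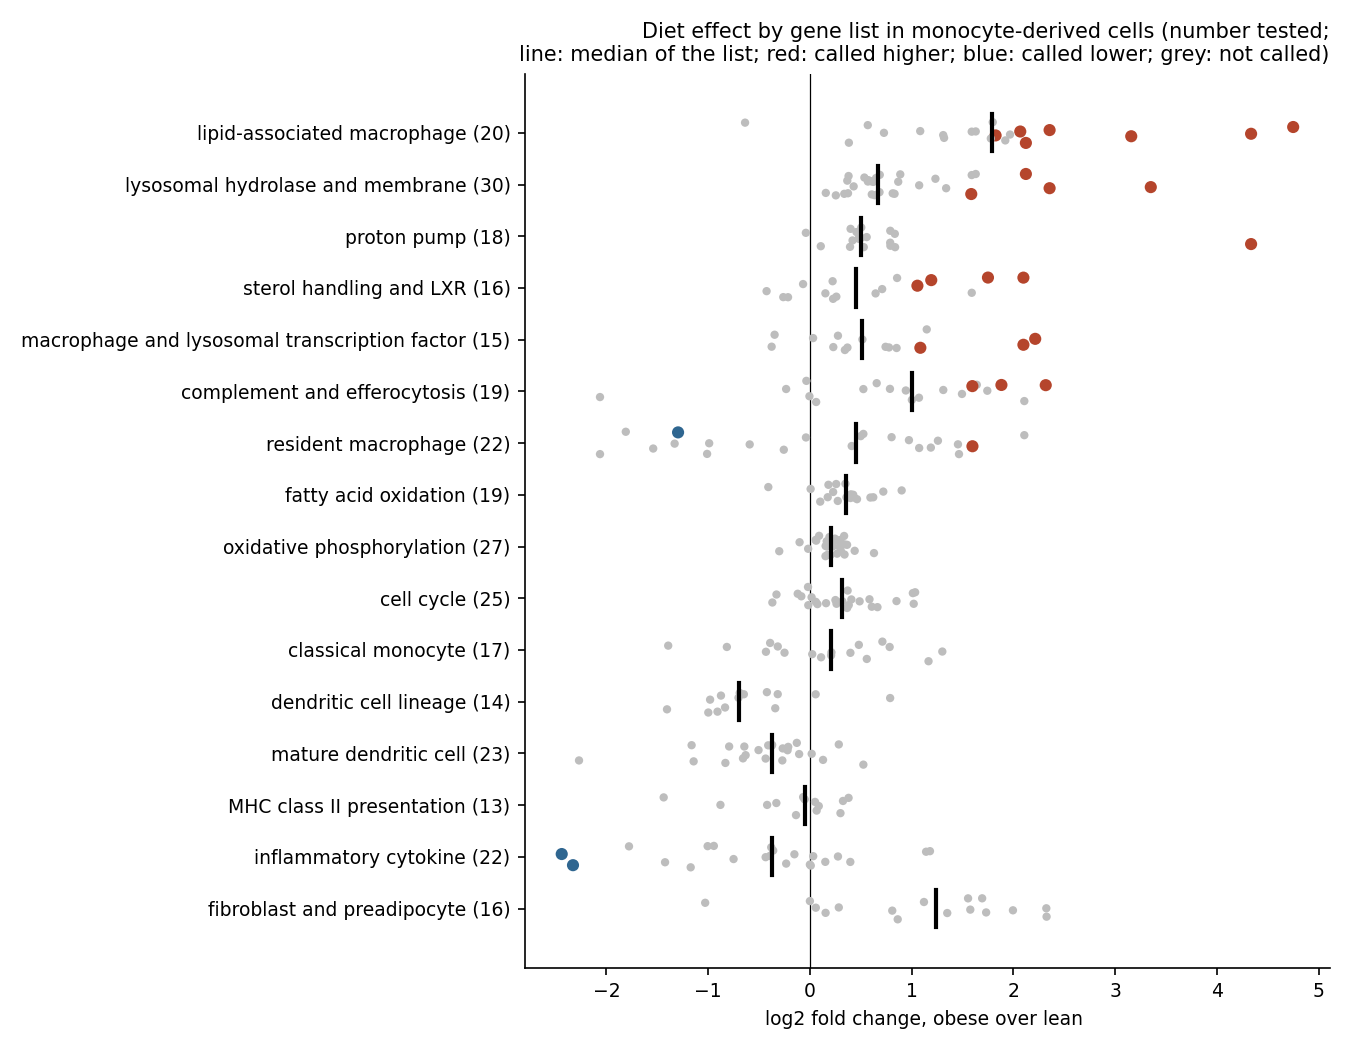
Log2 fold change of obese over lean (x axis) for the genes of 16 lists in monocyte-derived cells; each dot is a gene (red, called higher; blue, called lower; grey, not called), the black line is the list's median, and the number tested is in parentheses. All 30 lysosomal genes lie right of 0, the lipid-associated macrophage list has the highest median at 1.79, and the dendritic cell lineage list has the lowest at -0.70.

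Genes for taking up dead cells and for complement were higher in part. Of 19 tested, 3 rose (Axl, Mfge8 and Itgb5), none was called lower by edgeR, and the median log2 change was 1.002. Limma called 8 higher (3.23% of all tested genes) and 1 lower (5.48%). DESeq2 also called 8 higher (2.93%) and 1 lower (3.89%). Axl, a receptor kinase for dead cells, was at 393, 515 and 524 CPM in obese and 135, 199 and 139 CPM in lean libraries (log2 1.60 ± 0.20, adjusted p = 0.0163). Mfge8, the secreted bridge between dead cells and integrins, was at 31.5, 48.6 and 42.5 CPM in obese and 14.5, 8.4 and 10.4 CPM in lean libraries (log2 1.88 ± 0.25, adjusted p = 0.0202). Every obese library exceeded every lean library in both genes. Itgb5, an integrin chain that binds the bridge, was at 42.3, 108 and 70.7 CPM in obese and 14.6, 14.5 and 15.2 CPM in lean libraries (log2 2.32 ± 0.31, adjusted p = 0.0206), with obese replicate 2 the highest by far. The complement gene C1qa was at 66.6, 161 and 183 CPM in obese and 31.3, 148 and 24.8 CPM in lean libraries and was not called (log2 1.002 ± 0.65, adjusted p = 0.443). Lean replicate 2 lay within the obese range for C1qa and the other lean libraries lay under it.

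Further rises, put together here after their values were seen, were in a prostaglandin enzyme, surface receptors and a transporter. Hpgds belongs to the list of eicosanoid synthesis and Fcgr1 to that of resident macrophages. Of 18 eicosanoid genes edgeR called Hpgds alone, and their median log2 change was -0.19. At an unadjusted p under 0.05, 2 were higher (7.28% of all tested genes) and 5 lower (11.6%). Limma and DESeq2 called 2 higher and 1 lower each. Hpgds, the enzyme that makes prostaglandin D2, at chr6:65117293-65144908 (- strand), was at 19.8, 43.3 and 40.8 CPM in obese and 4.08, 3.8 and 3.71 CPM in lean libraries (log2 3.16 ± 0.31, adjusted p = 0.0104). Siglec1, the sialic acid-binding receptor CD169, was at 36.7, 79.4 and 62.2 CPM in obese and 7.8, 8.9 and 8.78 CPM in lean libraries (log2 2.81 ± 0.28, adjusted p = 0.0104). The lean libraries of each were nearly equal, and obese replicate 1 was the lowest obese library in both. Cd93, a C-type lectin-like receptor, was at 243, 414 and 271 CPM in obese and 63.4, 81.5 and 73.2 CPM in lean libraries (log2 2.09 ± 0.22, adjusted p = 0.0131). Fcgr1, the high-affinity IgG receptor CD64, was at 26.5, 44.8 and 30.7 CPM in obese and 14, 11 and 8.6 CPM in lean libraries (log2 1.60 ± 0.26, adjusted p = 0.0382). Both were higher in all 3 obese libraries, and the rise in Fcgr1 was the smaller. Slco2b1, an organic anion transporter, was at 16.8, 67.6 and 41.5 CPM in obese and 4.32, 6.35 and 6.52 CPM in lean libraries (log2 2.87 ± 0.46, adjusted p = 0.0382), and its gene is overlapped on the opposite strand. Toll-like receptors 5 and 13, which detect bacterial flagellin and bacterial ribosomal RNA, rose by 1.54 and 1.76 on the log2 scale.

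The list of resident macrophage genes was mixed. Of 22 tested, Fcgr1 rose and Cd163 fell, with a median of 0.46. At an unadjusted p under 0.05, 5 were higher and 3 lower, as they were by DESeq2, and limma called 2 higher and 2 lower. Mrc1, the mannose receptor, was at 609.7, 718 and 735 CPM in obese and 654, 882 and 583 CPM in lean libraries (log2 -0.039 ± 0.19, adjusted p = 0.932). Adgre1, which encodes F4/80, was at 152, 272 and 265 CPM in obese and 73.1, 178 and 99.8 CPM in lean libraries (log2 0.97 ± 0.34, adjusted p = 0.17). Mrc1 overlapped fully between the groups, and for Adgre1 lean replicate 2 lay within the obese range. Csf1r, the receptor for macrophage growth factor, was at 718, 944 and 917 CPM in obese and 348, 878 and 303 CPM in lean libraries (log2 0.75 ± 0.37, adjusted p = 0.314), with the same library out of line.

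Of the Cd300 family of lipid-binding receptors, 3 neighbouring members on chromosome 11 were called together. Cd300ld4 was at 7.53, 15.4 and 10.9 CPM in obese and 0.66, 1.9 and 1.09 CPM in lean libraries (log2 3.18 ± 0.43, adjusted p = 0.0228). Cd300ld3 and Cd300ld5 rose by 2.81 and 2.54 on the log2 scale (adjusted p = 0.0163 and 0.0163). The 3 genes are not independent measurements: of the 803 overlapping 50-base words in the transcripts of each, 82.1% in Cd300ld3, 93.8% in Cd300ld4 and 100% in Cd300ld5 also occur in a relative, so the split of reads among them is uncertain. Their upstream sequences are near copies too, and are shown from 250 to 131 bases before the RefSeq start on GRCm38.p6 in the direction of the gene, with capitals at the 7 of 120 positions where the 3 differ.
Cd300ld4, chr11:115027064-115027183 (- strand): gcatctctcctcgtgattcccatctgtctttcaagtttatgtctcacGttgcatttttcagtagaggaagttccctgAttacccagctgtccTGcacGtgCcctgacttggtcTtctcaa
Cd300ld5, chr11:115037821-115037940 (- strand): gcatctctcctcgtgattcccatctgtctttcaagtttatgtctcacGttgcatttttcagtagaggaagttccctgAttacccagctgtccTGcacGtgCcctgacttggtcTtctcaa
Cd300ld3, chr11:115048461-115048580 (- strand): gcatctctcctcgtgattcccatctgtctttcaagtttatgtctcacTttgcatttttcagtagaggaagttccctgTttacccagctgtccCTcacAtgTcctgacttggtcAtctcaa

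Further large rises fell in none of these groups. Rnf128, a ubiquitin ligase, was at 14.3, 41.9 and 26.9 CPM in obese and 3.06, 2.5 and 1.72 CPM in lean libraries (log2 3.49 ± 0.42, adjusted p = 0.0163). Akr1b8, a reductase of aldehydes, was at 5.68, 18.1 and 14.2 CPM in obese and 0.54, 1.25 and 2.17 CPM in lean libraries (log2 3.30 ± 0.56, adjusted p = 0.043). The lean levels of both were a few CPM at most, so their folds rest on few counts. Slc37a2, a sugar phosphate transporter, was at 143, 186 and 149 CPM in obese and 27.8, 26.1 and 36.4 CPM in lean libraries (log2 2.41 ± 0.19, adjusted p = 0.00367), and it was the gene still called without lean replicate 3. Fam83f, overlapped on the opposite strand, was at 11.7, 19.2 and 18 CPM in obese and 1.2, 2.65 and 2.9 CPM in lean libraries (log2 2.87 ± 0.36, adjusted p = 0.0163). All of these were higher in every obese library.

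Some rises were led by the library with the most fibroblast RNA. The 16 fibroblast genes summed to 1066, 2475 and 1006 CPM in obese and 735, 556 and 699 CPM in lean libraries, with a median log2 change of 1.24. EdgeR called 0 of them. At an unadjusted p under 0.05, 9 were higher (7.28% of all tested genes) and 1 lower (11.6%). Limma called 1 lower (5.48% of all tested genes) and DESeq2 8 higher (2.93%). Col1a1, which encodes a collagen chain and defines fibroblasts, was at 143, 382 and 118 CPM in obese and 34.2, 26.1 and 64.9 CPM in lean libraries. Bgn, a matrix proteoglycan, was at 33.7, 99.7 and 44.4 CPM in obese and 13.1, 12.4 and 11 CPM in lean libraries (log2 2.28 ± 0.38, adjusted p = 0.042). Mmp14, a membrane protease that cuts collagen, was at 30.6, 58.2 and 38.4 CPM in obese and 14.2, 13 and 14.1 CPM in lean libraries (log2 1.62 ± 0.24, adjusted p = 0.0283). Obese replicate 2 was the highest library for the fibroblast sum, Col1a1, Bgn and Mmp14 alike, as it was for Itgb5. This order is not particular to these genes. Obese replicate 2 was also the highest for other rises, such as Gpnmb, Atp6v0d2, Ctsk, Ctsl, Lgmn and Plin2. It was not the highest for Trem2, Cd63, Nr1h3 and Pparg. The part of fibroblast RNA in the rises of Bgn, Mmp14, Itgb5 or any other gene was not tested.

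The falls were fewer and included products of immune activation. Arg1, the enzyme arginase, was at 7.77, 4.8 and 4.1 CPM in obese and 29.9, 37.5 and 23.1 CPM in lean libraries (log2 -2.44 ± 0.29, adjusted p = 0.0163). Il1a, which encodes interleukin 1 alpha and is overlapped on the opposite strand, was at 9.74, 7.17 and 11.9 CPM in obese and 34.5, 74.5 and 35.8 CPM in lean libraries (log2 -2.33 ± 0.34, adjusted p = 0.0261). All obese libraries were lower than all lean libraries in both, and lean replicate 2 was the highest. Of 22 genes in the list of inflammatory cytokines and activation enzymes these were the only calls by edgeR, and the list's median was -0.37. At an unadjusted p under 0.05, 8 were lower and 2 higher. Limma called 5 lower and 2 higher, and DESeq2 4 lower and 1 higher. Il1b, for interleukin 1 beta, was at 710.4, 429 and 461 CPM in obese and 1326, 670.3 and 695 CPM in lean libraries (log2 -0.75 ± 0.30, adjusted p = 0.229). Il6, for interleukin 6, was at 15.1, 16 and 16.5 CPM in obese and 42.8, 60.6 and 23.7 CPM in lean libraries (log2 -1.42 ± 0.30, adjusted p = 0.0628). Tnf went the other way without a call, at 76.6, 82.2 and 101 CPM in obese and 22.1, 69.9 and 25.1 CPM in lean libraries (log2 1.14 ± 0.40, adjusted p = 0.171). For Il1b the groups overlapped, whereas for Il6 and for Tnf they did not.

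Regulators of growth and of cytokine signals were among the falls. Ccnd2, which encodes cyclin D2 and is overlapped on the opposite strand, was at 104, 104 and 99.6 CPM in obese and 348, 223 and 300.1 CPM in lean libraries (log2 -1.50 ± 0.18, adjusted p = 0.0163). The obese libraries were nearly equal, and every lean library was far above them. Il1rl1, the receptor for interleukin 33, was at 54.4, 39.8 and 49.1 CPM in obese and 126, 97.8 and 113 CPM in lean libraries (log2 -1.23 ± 0.17, adjusted p = 0.0235). Cish, an inhibitor of cytokine signals through STAT5 whose gene is overlapped on the opposite strand, was at 23, 15.4 and 16.3 CPM in obese and 57.4, 51.7 and 34.9 CPM in lean libraries (log2 -1.40 ± 0.23, adjusted p = 0.0426). Cd163, the scavenger receptor for haemoglobin, was at 85.9, 66.4 and 84.7 CPM in obese and 192, 153 and 237 CPM in lean libraries (log2 -1.30 ± 0.19, adjusted p = 0.0283). None of the 3 overlapped between the groups. The remaining named falls were Flrt3, a membrane protein with leucine-rich repeats (-1.85), Kbtbd11 (-1.65, overlapped on the opposite strand), Hepacam2 (-2.08), Trim30b (-2.28) and Trim30c (-2.15), each as a log2 change.

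Falls at low levels have to be read beside the background of the lean libraries. Sv2b, a synaptic vesicle protein whose gene is overlapped on the opposite strand, was at 1.58, 0.713 and 0.77 CPM in obese and 10.4, 5.7 and 14.8 CPM in lean libraries (log2 -3.30 ± 0.46, adjusted p = 0.025). Ank3, which encodes an ankyrin, was at 0.811, 1.14 and 0.556 CPM in obese and 8.1, 3.45 and 15.2 CPM in lean libraries. Cntnap5a, a neuronal membrane protein, was at 0.116, 0.143 and 0.0428 CPM in obese and 3, 1.15 and 4.8 CPM in lean libraries. In all 3 genes the lean libraries had the order of the background, with replicate 3 highest and replicate 2 lowest. Ank3 and Cntnap5a were chosen for mention after their values were seen. Cd163 had the same order in the lean libraries, and Arg1, Il1a and Ccnd2 did not. With the background of the receptor genes subtracted from every library, all 25 falls kept their direction, 21 of them were called again and Sv2b had a log2 change of -3.55. Cntnap5a and Trim30b were among the 4 falls no longer called, and of the 97 rises 74 were called again.

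Genes that define the dendritic side of these cells were lower in obese mice in median but were not called. Of 14 genes of the dendritic cell lineage edgeR called 0, with 1 higher and 4 lower at an unadjusted p under 0.05, limma called 3 lower and DESeq2 1 higher and 3 lower. Their median log2 change was -0.70. Zbtb46, a transcription factor of conventional dendritic cells, was at 88, 42.5 and 54.6 CPM in obese and 160.2, 52.1 and 158 CPM in lean libraries (log2 -0.999 ± 0.42, adjusted p = 0.246). Flt3 had a log2 change of -0.98 ± 0.57 (adjusted p = 0.394). For both, lean replicate 2 lay within or under the obese range and the other lean libraries lay above it. Of 23 genes of mature dendritic cells edgeR called 0, with 4 lower at an unadjusted p under 0.05, and limma and DESeq2 called 3 and 2 lower; their median was -0.38. Ccr7 was at 334, 131 and 189.9 CPM in obese and 472, 73.5 and 213 CPM in lean libraries (log2 -0.21 ± 0.58, adjusted p = 0.874), and the lean libraries spanned the whole obese range.

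Genes of cell identity outside these groups were not called. Itgax, which encodes CD11c, was at 356, 312 and 370.5 CPM in obese and 375, 304 and 319.9 CPM in lean libraries (log2 0.057 ± 0.15, adjusted p = 0.868). H2-Ab1 had a log2 change of -0.14 ± 0.20 (adjusted p = 0.757) and Ccr2 of 0.023 ± 0.18 (adjusted p = 0.961). The groups overlapped in all 3, and with these errors small changes in either direction were not detectable. Of 13 genes of MHC class II presentation edgeR called 0, with 1 higher and 1 lower at an unadjusted p under 0.05 and 1 lower by limma and by DESeq2. Of 17 classical monocyte genes it called 0, with 3 higher and 1 lower at an unadjusted p under 0.05, while limma and DESeq2 called 1 lower each. The monocyte list summed to 10032, 10549 and 11037 CPM in obese and 8415, 23732 and 6594 CPM in lean libraries, and lean replicate 2 was far above every other library.

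Proliferation and respiration were likewise without calls by edgeR. Mki67, a marker of dividing cells, was at 264, 214 and 233 CPM in obese and 273, 205 and 204 CPM in lean libraries (log2 0.058 ± 0.17, adjusted p = 0.881), and the groups overlapped. Of 25 cell cycle genes edgeR called 0, with 7 higher at an unadjusted p under 0.05 (7.28% of all tested genes). Limma called 2 of them higher (3.23%) and DESeq2 1 (2.93%), and their median was 0.32. Of 27 genes of oxidative phosphorylation edgeR called 0, with 1 higher at an unadjusted p under 0.05. Limma and DESeq2 called 0 of these, and their median was 0.20.

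Markers of other cell types differed in level. Adipoq, the adipocyte hormone adiponectin, was at 0.156, 0 and 0.259 CPM in obese and 0.289, 0.399 and 0 CPM in lean libraries. The T cell gene Cd3e was at 1.05, 1.96 and 1.73 CPM in obese and 4.4, 1.94 and 3.2 CPM in lean libraries. The neutrophil gene S100a8 was at 0.078, 0.431 and 0 CPM in obese and 1.62, 0.798 and 0.0889 CPM in lean libraries. Csf3r of the same list was at 27.5, 40.3 and 36.8 CPM in obese and 15.5, 18.4 and 16 CPM in lean libraries. At an unadjusted p under 0.05, 1 of 5 tested neutrophil genes was higher and 2 were lower. The neutrophil list summed to 28.8, 43.1 and 37.7 CPM in obese and 23.2, 23.6 and 22.4 CPM in lean libraries. The mast cell and eosinophil list summed to 10.7, 36.5 and 38.9 CPM in obese and 17, 15.1 and 19.3 CPM in lean libraries. Other list genes had higher levels, such as Blnk of the B cell list, at 85.6, 114 and 157 CPM in obese and 64.1, 146 and 73.2 CPM in lean libraries, and Tcf4 of the plasmacytoid list, at 122, 156 and 129 CPM in obese and 122, 77.3 and 113 CPM in lean libraries. The B cell list summed to 179, 272 and 253 CPM in obese and 216, 241 and 172 CPM in lean libraries, and the groups overlapped. The plasmacytoid list summed to 144, 179 and 154 CPM in obese and 148, 97.3 and 135 CPM in lean libraries. Endothelial genes summed to 85.7, 211 and 122 CPM in obese and 93.1, 85.7 and 103 CPM in lean libraries, with obese replicate 2 the highest. Over the adipocyte, mesothelial, T and NK cell, B cell, plasmacytoid dendritic cell, neutrophil, mast cell and erythroid lists, 56 genes in all, edgeR called 0, with 5 higher and 8 lower at an unadjusted p under 0.05, while limma called 1 higher and 2 lower and DESeq2 2 higher and 2 lower, shares near those over all tested genes. Over 8 further lists, of conventional dendritic cell subsets, chemokines, interferon response, immediate early genes, antioxidant defence and glycolysis, edgeR called 0 of 122 genes, summed over lists. At an unadjusted p under 0.05, 13 were higher and 11 lower, beside 7.28% and 11.6% of all tested genes. Limma called 6 higher and 2 lower (3.23% and 5.48% of all tested genes) and DESeq2 7 higher and 3 lower (2.93% and 3.89%). The calls in the lists of eicosanoid synthesis, matrix remodelling, non-classical monocytes, endothelium and iron handling were those of Hpgds, Mmp14, Fabp4 and Cd163 already given.

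The diet effect in monocyte-derived cells was next set against the diet effect in the macrophages sorted beside them, in a single fit of all 21 libraries and 22935 genes with a test of the difference itself. In that fit, 993 genes (4.33%) differed in their diet effect from MHCII-low macrophages and 1459 (6.36%) from CD11c-negative macrophages, which carry MHC class II. Of the 122 genes called in monocyte-derived cells, which the contrast itself selected, the difference was called in 41 and 37. Without lean replicate 2 of the monocyte-derived cells the 2 totals were 2484 and 3124, and without obese replicate 3 they were 566 and 944.

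The diet effect on Gpnmb, Atp6v0d2 and Ctsk was large in all 3 populations. Gpnmb rose by 4.79 ± 0.49 in monocyte-derived cells, 5.08 ± 0.49 in MHCII-low and 5.46 ± 0.50 in CD11c-negative macrophages (log2 ± SE, n = 3 per group). Atp6v0d2 rose by 4.36 ± 0.36, 4.15 ± 0.33 and 4.18 ± 0.33, and Ctsk by 3.40 ± 0.40, 3.46 ± 0.37 and 3.66 ± 0.37, in the same order. The difference between populations was not called for these 3 genes (adjusted p between 0.562 and 0.961), which does not show that their effects were equal. Over the 20 lipid-associated macrophage genes the difference from MHCII-low macrophages was called higher in 4 (1.9% of all genes) and lower in 3 (2.43%), and that from CD11c-negative macrophages higher in 2 (3.85%) and lower in 3 (2.51%). Cd63 and Ctsl were among the members with a larger diet effect in monocyte-derived cells than in MHCII-low macrophages, and Cd9 among those with a smaller one. In level, Gpnmb averaged 308 ± 120.3 CPM in monocyte-derived cells of obese mice, against 532 ± 235 CPM in MHCII-low, 635 ± 195 CPM in CD11c-negative and, at the top, 2472 ± 387 CPM in CD11c-positive macrophages of obese mice (SD, n = 3 each).

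Another set rose in monocyte-derived cells by more than in either macrophage population. Hpgds rose by 3.19 in monocyte-derived cells, with 0.14 in MHCII-low macrophages (adjusted p = 0.63) and -0.06 in CD11c-negative macrophages (adjusted p = 0.851), as log2 changes. The difference was 3.05 ± 0.33 and 3.25 ± 0.33 (SE, adjusted p = 2.87e-05 and 1.57e-05). Its level in obese monocyte-derived cells, 34 ± 12.5 CPM, lay between the 3.7 ± 0.209 CPM of lean monocyte-derived cells and the 172 to 204 CPM of the macrophage groups (means, SD, n = 3 each). Slco2b1 had the same arrangement, with 41 ± 24.5 CPM in obese and 5.49 ± 1.15 CPM in lean monocyte-derived cells and 248 to 305 CPM in the macrophage groups. Siglec1 rose by 2.84 in monocyte-derived cells, against 0.71 in MHCII-low and 0.54 in CD11c-negative macrophages (adjusted p of the differences 8.24e-05 and 6.06e-05). Cd93 rose by 2.12, against 0.45 and 0.27 in the same order (adjusted p of the differences 0.000382 and 0.000203). Tlr5 went in opposite directions, at 1.57 in monocyte-derived cells and -1.24 and -2.06 in the macrophages. The part of macrophage RNA in the monocyte-derived gate of obese mice in these rises was not tested.

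**Figure D5:**
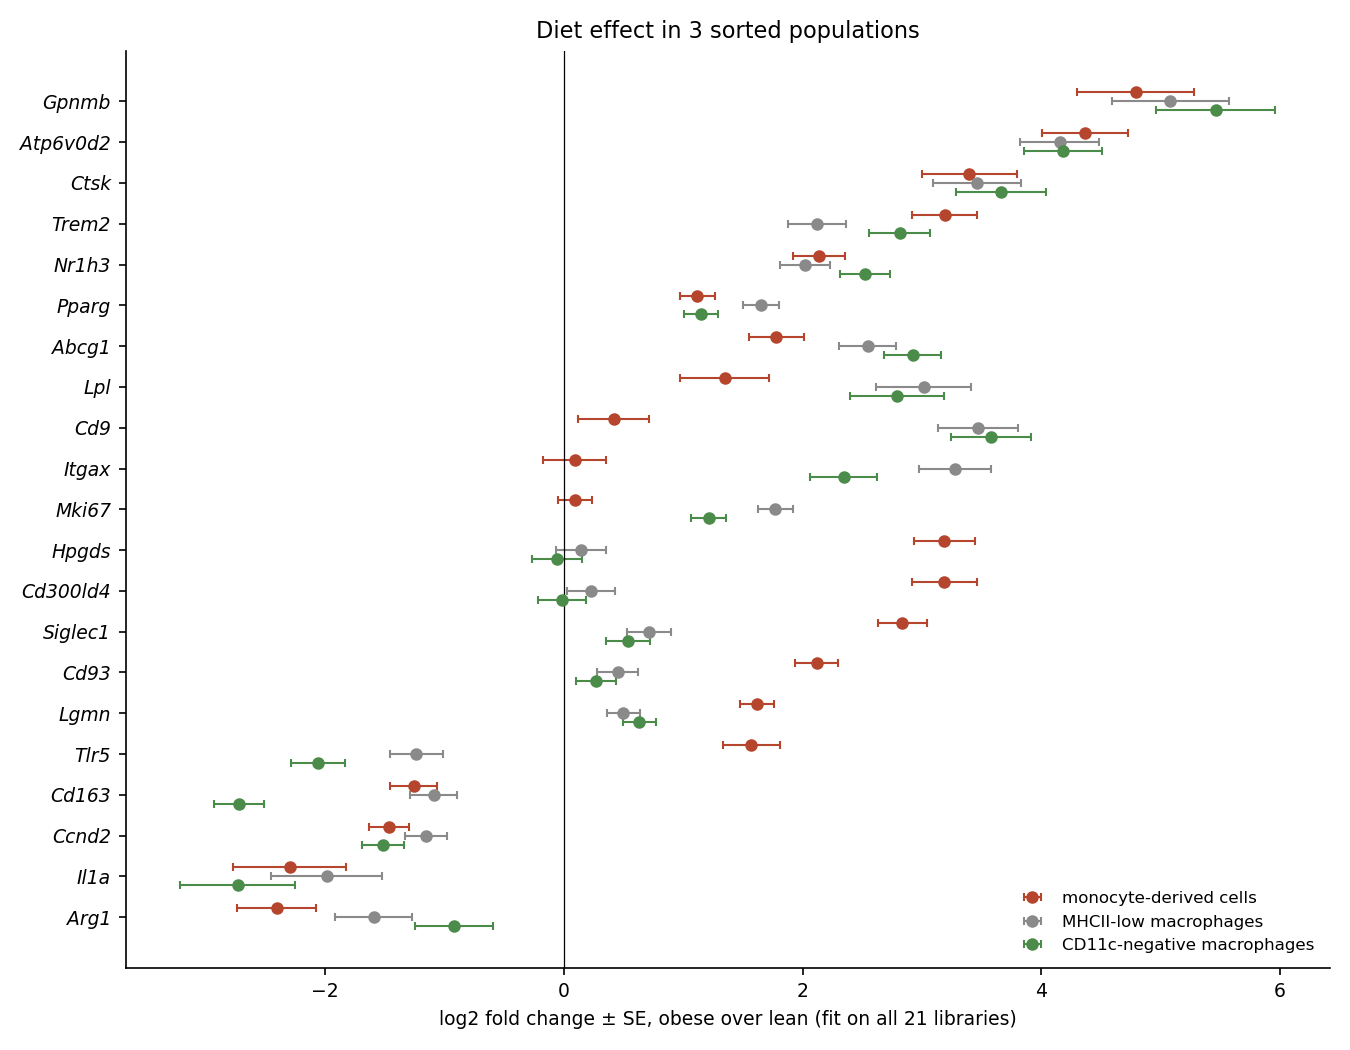
Log2 fold change of obese over lean ± SE (x axis, n = 3 per group, fit of all 21 libraries) for 21 genes in monocyte-derived cells (red), MHCII-low macrophages (grey) and CD11c-negative macrophages (green). Gpnmb, Atp6v0d2 and Ctsk lie together on the right in all 3 populations, Cd9, Itgax and Mki67 lie near 0 in monocyte-derived cells and to the right in the macrophages, and Hpgds and Cd300ld4 lie to the right in monocyte-derived cells and near 0 in the macrophages.

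For a reverse set the diet effect was larger in the macrophages. Itgax had a log2 change of 0.091 in monocyte-derived cells, 3.28 in MHCII-low and 2.34 in CD11c-negative macrophages, and the differences of -3.19 ± 0.40 and -2.25 ± 0.38 were called (adjusted p = 0.00011 and 0.00191). Cd9 had 0.42 in monocyte-derived cells, 3.47 in MHCII-low and 3.58 in CD11c-negative macrophages (adjusted p of the differences 0.000631 and 0.000636). Both genes were already high in lean monocyte-derived cells, where Itgax averaged 319 ± 36.7 CPM and Cd9 70.7 ± 17 CPM, against 4.58 ± 0.849 and 10.5 ± 1.31 CPM in lean MHCII-low macrophages (SD, n = 3 each). Lpl, at 1.35 against 3.01 and 2.79, had no called difference (adjusted p = 0.0811 and 0.11).

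The cell cycle genes differed between the populations as well. Of 25 cell cycle genes, 24 rose in MHCII-low macrophages (16.8% of all genes did) and 22 in CD11c-negative macrophages (16.8% of all genes). The diet effect was called smaller in monocyte-derived cells than in MHCII-low macrophages for 16 of the 25 (2.43% of all genes) and than in CD11c-negative macrophages for 14 (2.51% of all genes). The median differences were -1.10 and -0.76 on the log2 scale, beside -0.05 and -0.03 over all genes. Mki67 averaged 233 ± 26.3 CPM in obese and 218 ± 38.9 CPM in lean monocyte-derived cells, against 294 ± 10.2 CPM in obese and 86.1 ± 12.9 CPM in lean MHCII-low macrophages (SD, n = 3 each). Over the resident macrophage list the difference from MHCII-low macrophages was called higher in 3 of 22 (1.9% of all genes) and that from CD11c-negative macrophages in 7 (3.85%), with median differences of 0.39 and 1.51. The list's median diet effect was 0.50 in monocyte-derived cells, -0.23 in MHCII-low and -0.85 in CD11c-negative macrophages. In CD11c-negative macrophages 2 of these genes were called higher (16.8% of all genes) and 10 lower (15.6%), so the differences include falls in the macrophages. Of the falls, Ccnd2 was lower in obese mice in all 3 populations, at -1.46, -1.15 and -1.52, and so were Il1a, at -2.30, -1.99 and -2.73, and Cd163, at -1.26, -1.09 and -2.72, in the order monocyte-derived, MHCII-low and CD11c-negative.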

How the data were processed

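RNA-seq was measured in 21 libraries, of which the 6 of monocyte-derived cells carry the comparison. The deposited values are raw counts of reads per gene for 54532 genes. Per the submitters' processing notes, the tools were STAR 2.6.0a, Trim Galore 0.4.5, bcl2fastq and, from Subread 1.4.6-p5, featureCounts, with GRCm38 as the build. The annotation release and strand setting are not stated in the sources used. A gene and a partner on the opposite strand may therefore share reads, as 12 of the 52 named genes could. Symbols and coordinates came from GENCODE M21 (GRCm38), to which 54495 gene IDs matched without their version, and promoter sequences from RefSeq on GRCm38.p6.

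The counts were filtered with filterByExpr, scaled with TMM and tested in R 4.3.3 with edgeR 4.0.16 (robust quasi-likelihood test, 4 residual degrees of freedom, Benjamini-Hochberg adjustment over 19248 genes). Differences in diet effect between populations were tested as interaction terms in a fit of all 21 libraries. Sums over gene lists are CPM scaled by library totals alone, with no TMM factor. Alternatives used DESeq2 1.42.0, limma 3.58.1 with quality weights, other scalings, filters, thinning to 11245851 counts, background subtraction and leaving out each library.

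Named genes were the 10 largest rises and 10 largest falls among called protein-coding genes of at least 10 CPM with no overlap, up to 4 called genes from each list, smallest p first, and 24 fixed genes. The other genes named were chosen after their values were seen. The members and the 39 gene lists were chosen with earlier results of these data known. Replicate numbers were taken from the sample titles. The deviations of same-numbered obese and lean libraries from their group means correlated at 0.418, 0.038 and -0.318 over 7907 genes. Only the replicates 1 deviated together among these, and the title numbers were not treated as pairs. The sample descriptions number the lean libraries otherwise. Obese replicate 3 and lean replicate 2, which share a description number, correlated at 0.442, and the replicates 1 share one too. The sources used do not say what these numbers mark.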

Additional observations from a re-analysis of the deposited data

Results flagged for a closer look

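Genes are listed here because their diet effect in monocyte-derived cells differed from that in a macrophage population by edgeR's interaction test, with an adjusted p under 0.05. Each value is the log2 diet effect in monocyte-derived cells minus that in the macrophages. A positive value therefore comes from a larger rise or from a smaller fall in monocyte-derived cells, or from opposite directions. A negative value comes from a smaller rise or from a larger fall. The size of the effect alone cannot be read from it.

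The difference was positive against both populations for the following genes. It was 3.05 against MHCII-low and 3.25 against CD11c-negative macrophages for Hpgds, 2.81 and 3.63 for Tlr5, 2.73 and 2.68 for Slco2b1, 2.12 and 2.30 for Siglec1, and 1.67 and 1.85 for Cd93, in that order of populations. The neighbouring genes Cd300ld4, Cd300ld3 and Cd300ld5, which share reads, had 2.96 and 3.20, 2.52 and 2.77, and 2.24 and 2.54. Gdf15 had 2.16 and 2.49, Bhlhe41 2.36 and 2.23, Mylip 1.73 and 1.46, Cd63 1.36 and 1.22, Lgmn 1.12 and 0.98, and Lpin2 0.99 and 0.76.

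Against MHCII-low macrophages alone the difference was called for Ly6c2 at 2.86, Ctsl at 1.18, Fcgr1 at 1.17 and Slc37a2 at 0.82. Against CD11c-negative macrophages alone it was called for Tnf at 2.11, Cd163 at 1.46, Mrc1 at 0.75 and Abcg1 at -1.14. Whether these genes differ between the macrophage populations was not tested.

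The difference was negative against both populations for Itgax, at -3.19 against MHCII-low and -2.25 against CD11c-negative macrophages, for Cd9, at -3.05 and -3.17, for Mki67, at -1.68 and -1.12, and for Il1rl1, at -1.24 and -0.84.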

How the results depend on the processing

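The direction of all 122 called genes was the same under each of the 18 alternatives that gave them a value, but their number was not stable. Leaving out 1 library gave between 0 and 5096 calls (0 to 1910 higher, 0 to 3186 lower), the lowest without lean replicate 1 and the highest without lean replicate 2. An alternative chosen after seeing the data, without obese replicate 2 and lean replicate 3 together, gave 0 calls higher and 0 lower, with 2406 genes at an unadjusted p under 0.05. The counts were 3946 (1707 higher, 2239 lower) in the fit of all 21 libraries and 2310 (722 and 1588) with no filter, over 47961 genes. They were 1677 (622 and 1055) with limma and quality weights and 195 (120 and 75) after thinning. DESeq2, run on all 54532 genes, called 2065 (564 and 1501). Among the 19248 genes that edgeR tested, DESeq2 called 564 higher and 748 lower. Calls lower numbered 54 with TMM on protein-coding genes, 60 with a mean of at least 10 CPM and 40 with background subtracted. The cause of these shifts was not tested.

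With the replicate number of the titles as a block, 205 genes were called (153 higher, 52 lower), and with the numbers of the sample descriptions as a replicate block, added after seeing the data, 541 (241 and 300). By the title numbers, same-numbered libraries correlated at 0.418, 0.038 and -0.318 for replicates 1, 2 and 3. Of the pairs that share a description number, the replicates 1 correlated at 0.418 and obese replicate 3 and lean replicate 2 at 0.442. The highest of the other pairings was 0.156, between obese replicate 2 and lean replicate 3. With background subtracted, 95 of the 122 genes were called again.

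For the differences from the macrophages, leaving out a library gave 566 to 2484 genes against MHCII-low and 944 to 3124 against CD11c-negative macrophages, and no filter gave 1632 against MHCII-low macrophages.

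Signs turned only in genes that were not called. Ccr2 was at -0.012 with TMM on protein-coding genes, -0.10 with a mean of at least 10 CPM, -0.021 after thinning, -0.090 with background subtracted, -0.16 without obese replicate 2 and lean replicate 3, -0.15 with the description block, and between -0.071 and 0.23 with 1 library left out. Mki67 was at -0.080 with at least 10 CPM, -0.049 with limma, -0.015 after thinning, -0.061 with background subtracted and between -0.0068 and 0.23 with 1 library left out. Itgax was at -0.084 with at least 10 CPM and -0.068 with background subtracted. Mrc1 was at 0.080 with no filter, 0.029 with DESeq2 and 0.054 with limma, and between -0.15 and 0.20 with 1 library left out. Ly6c2 was at -0.071 without obese replicate 2 and lean replicate 3 and -0.031 with the description block. H2-Ab1 was between -0.26 and 0.090, and Ccr7 between -0.61 and 0.64, with 1 library left out, and Ccr7 was at 0.048 with the replicate block and 0.43 with the description block. With 3 libraries a group and a higher background in the lean libraries, depth limits what can be said of genes at a few CPM.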
